A study of Gallus gallus with 21 samples.

Results

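Chicken retinas that carried the W chromosome were compared with those that did not, over the genes that lie on neither sex chromosome. The division was chosen by the measured level of HINTW, a gene of the W chromosome: 13 libraries stood above 10 CPM (read counts scaled to library size) and 8 below. The genes described are the rows of the expression table that lie neither on the chromosome of HINTW (W) nor on that of SLC1A3 (Z) and reach 0.5 CPM in at least 7 of the 21 libraries. They number 11968 of 17704 such rows, and of 18631 rows in all. Of the 11968, 11915 lie on assembled chromosomes, 49 on unplaced scaffolds and 4 on the mitochondrial genome. All are called autosomal genes here.

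In birds the female carries one Z and one W chromosome and the male carries a pair of Z chromosomes. Dosage compensation of the Z chromosome is incomplete in birds, so that many Z genes have more transcript in males, while the W chromosome holds few genes, most of them with a Z partner. Differences at autosomal genes between the sexes are known chiefly from the gonads, and in other tissues they can follow from sex hormones, from the dose of Z and W regulators, or from both.

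Retinas came from control White Leghorn chickens of wild-type genotype raised under a standard light cycle. The libraries form 3 age groups of 7, titled 1 day, 3 days and 6 days, and the labels place collection at postnatal days 4, 6 and 9, with a labelled age of postnatal day 3 for every bird. Libraries with W transcripts (called W-carrying, the female type) were 3 at 1 day, 4 at 3 days and 6 at 6 days. Libraries without them (W-lacking, the male type) were 4 at 1 day, 3 at 3 days and 1 at 6 days. Sex is not given in the labels, and neither is the bird behind each library, so the p-values measure the spread between libraries, some of which may share a bird. The single W-lacking library at 6 days is C65L, and any comparison within that age rests on it.

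HINTW made the division, and its values are given as a description. It ranged from 121 to 147 CPM in the W-carrying libraries and from 0.0286 to 0.549 CPM in the W-lacking ones, so the nearest libraries on each side of the limit lay far from it. SPIN1W, another W gene, gave the same division, with 15.9 to 20.3 CPM in the W-carrying libraries and at most 0.0318 CPM in the others. Summed Z rows came to 12774 to 14318 CPM in the W-carrying libraries and 17176 to 18217 CPM in the W-lacking ones, and the groups did not overlap. Total reads, estimated from the value of 1 read, were 27.7 to 41.4 megareads per library, of which the table holds 8.65 to 13.8 megareads. Retinal markers were present in every library, among them GLUL (440 to 694 CPM) and GAD1 (286 to 349 CPM). Of the markers of neighbouring tissue, 8 of 13 lens genes (CRYAA, BFSP2 and MIP among them), 8 of 13 sclera and choroid genes (COL1A1, COL1A2 and DCN among them), 4 of 8 endothelial genes (CDH5 among them) and 2 of 11 pigment epithelium genes (BEST1 and TYR) stayed below 0.5 CPM in every library, and the others did not. The summed sclera and choroid level was 86.5 to 159.9 CPM in W-carrying and 109 to 135 CPM in W-lacking libraries. The endothelial sum was 43 to 73.2 CPM in W-carrying and 47.0 to 71.5 CPM in W-lacking libraries, and the pigment epithelium sum was 36.9 to 49.0 CPM in W-carrying and 36.2 to 49.6 CPM in W-lacking libraries.

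**Figure D1:**
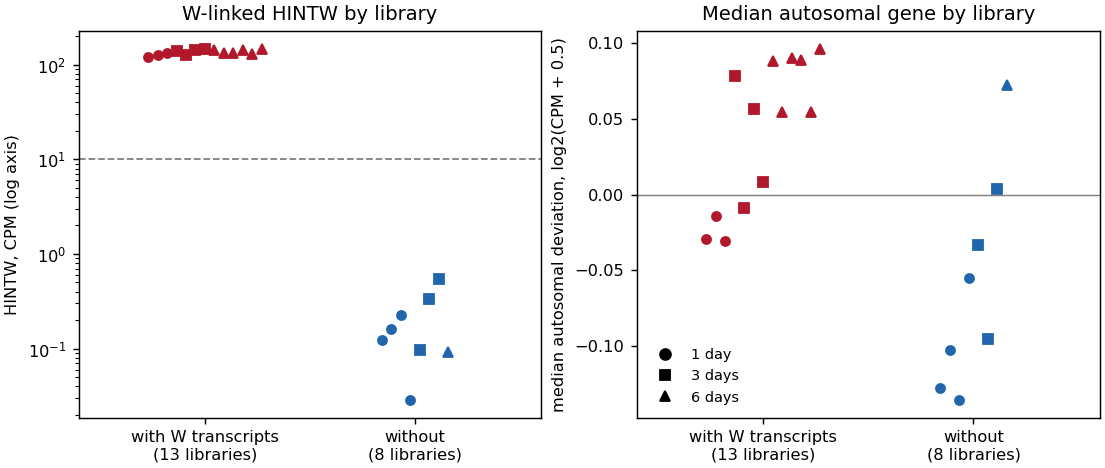
HINTW level (left, CPM on a log axis, with a dashed line at the limit of 10 CPM) and the median deviation of autosomal genes from their mean over all libraries (right, log2(CPM + 0.5)), 1 point per library, with the W-carrying libraries left of the W-lacking ones and symbols for age. HINTW separates the groups, and the median autosomal deviation, -0.14 to 0.10, moves with age and overlaps between the groups over all ages. At 1 day it does not overlap, with -0.03 to -0.01 in the 3 W-carrying libraries and -0.14 to -0.06 in the 4 W-lacking ones.

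Most autosomal genes differed little between W-carrying and W-lacking retinas. The fit was limma on log2(CPM + 0.5) with age as a covariate, and p-values were Benjamini-Hochberg adjusted over all 12614 rows tested, the Z and W rows included. At an adjusted p under 0.05, 120 of 11968 autosomal genes passed (1.00%), of which 111 were higher (0.927%) and 9 lower (0.0752%) in W-carrying retinas. Among Z rows 435 of 611 passed (71.2%), 411 of them lower (67.3%), and among W rows 34 of 35 (97.1%). The count of W rows follows from the division, since HINTW is one of them and W rows pass the filter through the W-carrying libraries, so it is a description. Over all rows 589 of 12614 passed (4.67%), 169 higher (1.34%) and 420 lower (3.33%). The median autosomal difference was 0.07 (log2) and the median Z difference was -0.43. Over all autosomal genes, 26 were at least 1.5-fold higher and 6 at least 1.5-fold lower in W-carrying retinas, and 6 were at least 2-fold higher and 0 at least 2-fold lower. Of the 120 genes that passed, 8 differed by at least 1.5-fold and 2 by at least 2-fold. In 74 of the 120 all 13 W-carrying libraries lay on the same side of the mean of the W-lacking ones. That mean pools the ages, the 120 were chosen by the same difference, and the count over all autosomal genes was not taken.

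The number of autosomal genes depends on what they are adjusted with. The many Z and W rows with small p-values raise the p at which a row passes. When the adjustment ran over the 11968 autosomal genes alone, 6 passed (0.0501%), all 6 higher in W-carrying retinas and 0 lower. Without adjustment, 1592 autosomal genes had a p under 0.05 (13.3%), 1514 of them higher (12.7%) and 78 lower (0.652%). The share of higher genes depends on the scaling. With median-of-ratios scaling over the autosomal rows, which set the median difference to 0.00, 45 genes passed, 24 higher and 21 lower, and 33 of the 45 were among the 120. With quantile normalization 48 passed, 30 higher and 18 lower. Leaving out 1 library moved the count of 120 to 67 without C42L, 72 without C19L, 77 without C18R and 79 without C21R. It rose to 179 without C22L and 198 without C65L.

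**Figure D2:**
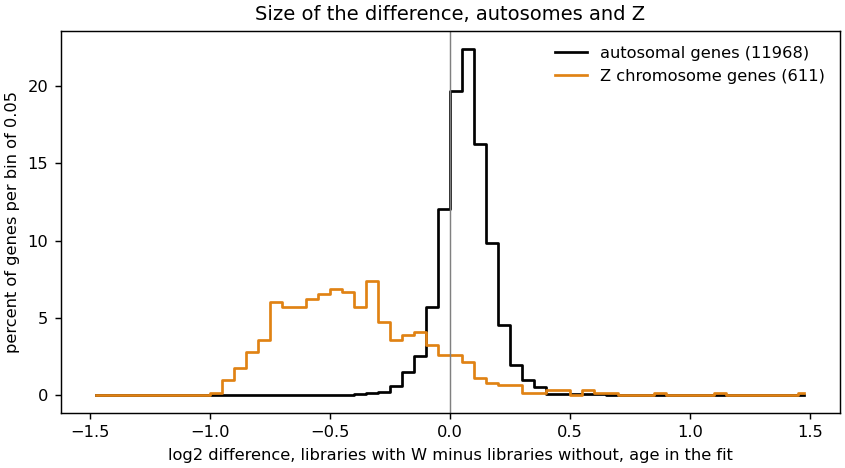
Distribution of the log2 difference (W-carrying minus W-lacking, age in the fit) over autosomal genes and Z genes, as percent of genes per bin of 0.05. The autosomal genes lie close to 0 with a median of 0.07, and the Z genes spread to the left with a median of -0.43.

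The 6 genes that passed over autosomal genes alone were TBCEL, SYT15, AN1ZNF5L, RNMT, SCP2 and CETN2. RNMT and SCP2 fall outside the naming rule and were chosen after their values were seen.

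SYT15, a member of the synaptotagmin family of membrane-trafficking proteins (chr6:3438301-3449492, GRCg6a, minus strand), had the largest difference of the genes that passed. It ranged from 4.49 to 14.6 CPM with a median of 7.18 in the 13 W-carrying libraries, and from 1.74 to 3.93 CPM with a median of 2.5 in the 8 W-lacking libraries. It was the only autosomal gene whose groups did not overlap with W-carrying libraries the higher (0.00836% of autosomal genes, against 38% of Z rows in the lower direction). The log2 difference was 1.33 (SE 0.187, 2.52-fold, adjusted p 1.01e-05 over all rows and 0.00139 over autosomal genes). At 1 day it averaged 7.70 ± 0.453 CPM in the 3 W-carrying libraries and 2.18 ± 0.382 CPM in the 4 W-lacking ones (SD). At 3 days the averages were 9.77 ± 3.99 CPM in 4 W-carrying libraries and 3.03 ± 0.757 CPM in 3 W-lacking ones. At 6 days the 6 W-carrying libraries averaged 5.89 ± 2.35 CPM and C65L stood at 3.93 CPM.

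TBCEL encodes a tubulin-folding cofactor E-like protein that acts on tubulin (chr24:3589091-3614132, minus strand). It had the smallest p of the autosomal genes. Its level was 12.5, 15.9 and 17.9 CPM (lowest, median and highest) in W-carrying libraries and 9.11, 10.6 and 13.9 CPM in W-lacking libraries. The groups overlapped only through C65L, the highest W-lacking library, and at each age every W-carrying library stood above every W-lacking one. The log2 difference was 0.43 (SE 0.0546, 1.35-fold, adjusted p 1.89e-06 over all rows and 0.000444 over autosomal genes).

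AN1ZNF5L, named for an AN1-type zinc finger (chr28:2309130-2316844, plus strand), ranged from 2.75 to 6.52 CPM with a median of 4.51 in W-carrying libraries. In W-lacking libraries it ranged from 1.5 to 3.74 CPM with a median of 2.20. Here too C65L was the highest W-lacking library, and the groups were separate at each age. The log2 difference was 0.75 (SE 0.117, 1.69-fold, adjusted p 4.48e-05 over all rows and 0.00442 over autosomal genes).

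The other 3 differed by less. RNMT, the enzyme that methylates the messenger RNA cap (chr2:96580070-96598994, minus strand), ranged from 44.9 to 58.1 CPM (median 51.2) in W-carrying libraries and from 37.2 to 48.8 CPM (median 38.9) in W-lacking ones, with a log2 difference of 0.24 (SE 0.0410). SCP2, a lipid carrier and thiolase of peroxisomes (chr8:24886682-24898814, plus strand), ranged from 34.4 to 47.9 CPM (median 39.7) in W-carrying libraries and from 25.7 to 37.6 CPM (median 30.3) in W-lacking ones, with a log2 difference of 0.33 (SE 0.0570). CETN2, a centrin of centrioles that also takes part in DNA repair (chr4:11283946-11288351, plus strand), ranged from 6.07 to 8.96 CPM (median 7.09) in W-carrying libraries and from 4.47 to 6.22 CPM (median 5.27) in W-lacking ones, with a log2 difference of 0.38 (SE 0.0720). Over autosomal genes alone their adjusted p-values were 0.0169, 0.0169 and 0.0425 in that order. With median-of-ratios scaling as well, the limma adjusted p-values were 0.288, 0.206 and 0.288, and none of the 3 passed. SCP2 overlaps PODN on the same strand, so reads of the overlap cannot be told apart.

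SYT15, AN1ZNF5L and TBCEL passed in all 38 alternative fits. These include the fits of the 1 day and of the 3 day libraries alone and both other scalings. They also include division by SPIN1W and assembled chromosomes alone, which could not differ from the main fit for these genes.

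**Figure D3:**
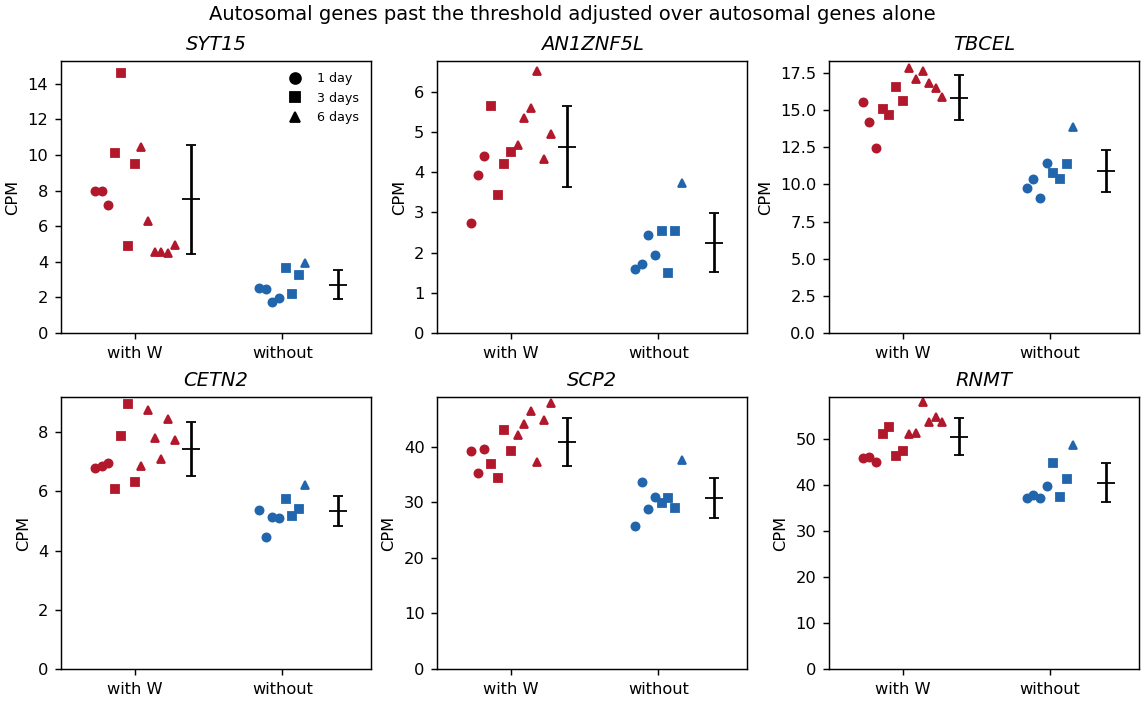
CPM of the 6 genes in every library, W-carrying libraries (red) left of W-lacking ones (blue), with symbols for age and, beside each group, the mean ± SD over its 13 or 8 libraries. SYT15 does not overlap between the groups, and in all 6 genes the W-lacking library of 6 days is the highest of its group.

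GTSF1, which in mice and flies serves transposon silencing by small RNAs in germ cells (chr27:3444216-3455475, plus strand), was the other gene past the threshold with at least a 2-fold difference. Its level was 2.68, 6.28 and 8.07 CPM (lowest, median and highest) in W-carrying libraries and 0.918, 1.78 and 5.39 CPM in W-lacking libraries, and the groups overlapped. At 1 day it stood at 6.45, 5.20 and 6.28 CPM in W-carrying libraries, against 0.918, 1.74, 0.956 and 1.66 CPM in W-lacking ones. At 3 days the values were 6.70, 2.68, 2.95 and 6.55 CPM in W-carrying libraries, against 4.30, 5.39 and 2.47 CPM in W-lacking ones. At 6 days it ranged from 4.39 to 8.07 CPM in W-carrying libraries and stood at 1.82 CPM in C65L. The groups were thus apart at 1 and 6 days and overlapped at 3 days. The log2 difference was 1.10 (SE 0.233, adjusted p 0.00277 over all rows and 0.0868 over autosomal genes). By age it was 1.86 (SE 0.279) at 1 day, 0.15 (SE 0.279) at 3 days and 1.47 (SE 0.395) at 6 days, and the test of a difference between ages did not pass over all rows (F test, p 0.000842, adjusted p 0.747). Without the libraries of 6 days the adjusted p was 0.0521.

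Among genes with a symbol other than LOC and a mean of at least 1 CPM in the higher group, the next 11 by size were 0.38 to 0.40 higher on the log2 scale. They passed over all rows but, apart from CETN2, not over autosomal genes alone. Of these, GNAT1 and OPN1MSW, both of phototransduction, are described with the retinal lists below. DTL, an adaptor of a ubiquitin ligase in DNA replication, ranged from 6.2 to 11.2 CPM (median 8.70) in W-carrying libraries and from 4.27 to 7.45 CPM (median 6.45) in W-lacking ones (adjusted p 0.00907). BBIP1 encodes a subunit of the BBSome, which carries proteins into cilia, and overlaps PDCD4 on the other strand. It had medians of 4.59 CPM in W-carrying libraries and 3.21 CPM in W-lacking libraries (adjusted p 0.0199). TXN2, the mitochondrial thioredoxin, had medians of 12.4 CPM in W-carrying libraries and 8.19 CPM in W-lacking ones (adjusted p 0.0260) and overlaps FOXRED2 and MYH9 on its strand. COQ9, of coenzyme Q synthesis, had medians of 5.48 CPM in W-carrying and 4.18 CPM in W-lacking libraries (adjusted p 0.0159). DGAT2, of triglyceride synthesis, had medians of 18.4 CPM in W-carrying and 13.1 CPM in W-lacking libraries (adjusted p 0.0242). KCNF1, a potassium channel subunit, had medians of 1.45 CPM in W-carrying and 0.956 CPM in W-lacking libraries (adjusted p 0.0261). C1H21ORF91 had medians of 10.6 CPM in W-carrying and 7.80 CPM in W-lacking libraries (adjusted p 0.0110). ITGAD, an integrin alpha chain, had medians of 7.0 CPM in W-carrying and 5.03 CPM in W-lacking libraries (adjusted p 0.0325). In each of these 8 genes the ranges of the groups overlapped. Leaving out 1 library ended some of these calls, with the highest limma adjusted p given for each gene. COQ9 no longer passed without C65L (adjusted p 0.0737), and BBIP1 without C19L or C42L (0.0657). KCNF1 no longer passed without C10R, C23R, C31L or C65L (0.0799), and DGAT2 without C10R, C19L, C21R or C42L (0.0759). TXN2 no longer passed without any 1 of C18R, C19L, C21R, C31L, C34L, C42L, C44R and C65L (0.0793), and ITGAD without any 1 of C18R, C21R, C22L, C23R, C31L, C33R, C41R, C42L, C43R and C44R (0.0955). With median-of-ratios scaling DTL, BBIP1 and C1H21ORF91 passed (adjusted p 0.0440, 0.0410 and 0.0344), and TXN2, KCNF1, DGAT2, COQ9 and ITGAD did not (adjusted p 0.0542 to 0.121).

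The 9 lower genes were LOC107049106, LOC107051751, MAP3K19, LOC112533026, PER3, JUN, FAM19A4, EIF5 and EOGT, with log2 differences of -0.81 to -0.18. All 9 also passed with median-of-ratios scaling, and none passed over autosomal genes alone with CPM as deposited. EOGT, which adds N-acetylglucosamine to EGF domains of secreted proteins (chr12:15674507-15690993, minus strand), ranged from 19.8 to 24.1 CPM (median 22.1) in W-carrying libraries and from 22.9 to 27.9 CPM (median 24.7) in W-lacking ones. Its log2 difference was -0.18 (SE 0.0468, adjusted p 0.0248), and with median-of-ratios scaling it was -0.24 and passed over autosomal genes alone as well (adjusted p 0.0471). FAM19A4, a secreted chemokine-like protein of neurons, is its neighbour (chr12:15590523-15663297, minus strand). It ranged from 7.60 to 12 CPM (median 9.56) in W-carrying libraries and from 10.5 to 13.6 CPM (median 11.4) in W-lacking ones, a log2 difference of -0.28 (SE 0.0815, adjusted p 0.0425).

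JUN, a subunit of the AP-1 transcription factor (chr8:26714120-26715828, minus strand), had 4.87, 6.11 and 9.17 CPM (lowest, median and highest) in W-carrying libraries and 5.93, 7.19 and 9.86 CPM in W-lacking libraries. The groups overlapped over all ages, and the log2 difference with age in the fit was -0.29 (SE 0.0709, adjusted p 0.0133). Without C65L it was -0.27 (adjusted p 0.0564). PER3, a repressor of the circadian clock (chr21:291189-310410, minus strand), had 37.3, 55.6 and 68.9 CPM in W-carrying libraries and 47.5, 66.3 and 92.7 CPM in W-lacking libraries. Its log2 difference was -0.29 (SE 0.0827, adjusted p 0.0414), with -0.45 at 1 day, -0.25 at 3 days and -0.05 at 6 days. It passed in 10 of 21 fits that left out 1 library, and without C19L it was -0.25 (adjusted p 0.126). EIF5, a translation initiation factor, differed by -0.20 (SE 0.0538, adjusted p 0.0302) and MAP3K19, a protein kinase that overlaps ZRANB3 on its strand, by -0.48 (SE 0.129, adjusted p 0.0259). The 3 LOC genes lay near the filter, with means of at most 1.04 CPM in W-carrying libraries and 1.5 CPM in W-lacking ones. LOC107049106 and LOC107051751 reached 0.5 CPM in enough libraries only through the W-lacking ones, where they were higher. Their place among the 9 lower genes is therefore a description. The highest adjusted p when 1 library was left out was 0.0957 for MAP3K19, 0.0737 for LOC107049106 and 0.147 for LOC107051751, each without C65L. It was 0.0975 for EIF5 without C19L, 0.110 for LOC112533026 without C42L, 0.112 for FAM19A4 without C43R and 0.0740 for EOGT without C31L. Of the 21 fits that left out 1 library, the call was lost in 12 for FAM19A4, 9 each for EIF5 and LOC112533026, 8 for LOC107051751, 7 for MAP3K19, 4 for EOGT and 2 for LOC107049106.

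**Figure D4:**
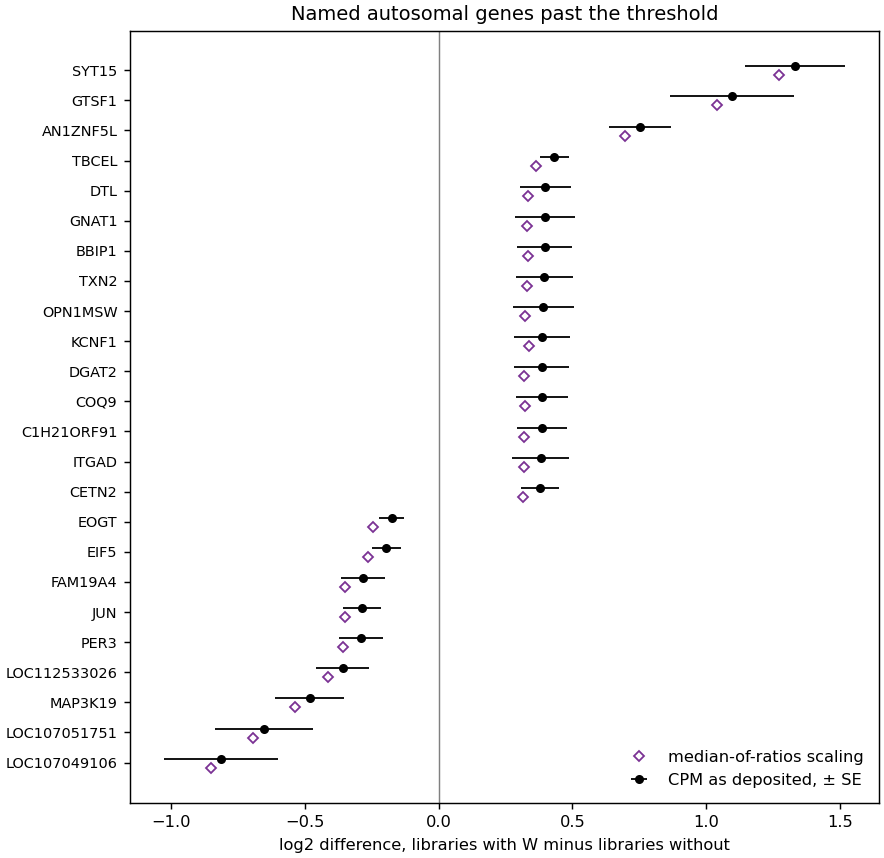
log2 difference (W-carrying minus W-lacking) of the 15 largest higher genes (with a symbol other than LOC and at least 1 CPM in the higher group) and all 9 lower genes past the threshold, with the SE as a bar for CPM as deposited (filled) and the value with median-of-ratios scaling (open). The 2 scalings keep the sign of every gene shown, and median-of-ratios scaling moves each value to the left.

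Of the 33 named genes past the threshold, 9 kept the call whichever of the 21 libraries was left out: SYT15, GTSF1, AN1ZNF5L, TBCEL, DTL, C1H21ORF91, CETN2, RNMT and SCP2. The other 24 lost it in at least 1 such fit. Leaving out C42L cost 17 of the 33 their call and leaving out C19L cost 16. Leaving out C59L cost 0, and leaving out C58R, C62L, C63R or C64L cost 1 each, all of them W-carrying libraries of 6 days. With age in the fit and C65L the single W-lacking library of that age, each of these libraries has little weight on the difference.

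Among retinal genes, the lists of cell types gave at most 1 gene each past the threshold. These lists, like those that follow, were chosen with results of these data known. Of 18 rod phototransduction genes tested, 1 was higher and 0 lower, and the list median was 0.15 against 0.07 over all autosomal genes. An unadjusted p under 0.05 was reached by 9 of the 18, against 13.3% of all autosomal genes. The higher gene was GNAT1, the rod transducin alpha subunit (chr12:3598978-3601689, plus strand). It stood at 13.4, 19.2 and 28.6 CPM (lowest, median and highest) in W-carrying libraries and 9.25, 12.8 and 19 CPM in W-lacking libraries, a log2 difference of 0.40 (SE 0.112, adjusted p 0.0369). It missed the threshold under median-of-ratios scaling (0.33, adjusted p 0.0686) or without any 1 of C10R, C18R, C21R, C31L, C33R, C41R and C42L (at the highest, without C42L, 0.33, adjusted p 0.120). The arrestin SAG had a log2 difference of 0.26 and did not pass (adjusted p 0.121). Of 13 cone phototransduction genes, 1 was higher and 0 lower, with a median of 0.02, and 5 had an unadjusted p under 0.05. The higher gene was OPN1MSW, a medium-wavelength cone opsin (chr26:4556844-4562455, minus strand). Its level was 38.4, 57.1 and 82.4 CPM in W-carrying libraries and 19.2, 37.0 and 66.9 CPM in W-lacking libraries, a log2 difference of 0.39 (SE 0.115, adjusted p 0.0493). By age the difference was 0.61 at 1 day, 0.45 at 3 days and -0.18 at 6 days, and OPN1MSW passed in 8 of 21 fits that left out 1 library. It overlaps LOC101750261 on the other strand. Without C42L its log2 difference was 0.33 (adjusted p 0.147). OPN1LW, the long-wavelength opsin, had the largest log2 difference of that list, 0.52, and did not pass (adjusted p 0.164). The 13 cone genes ran from -0.22 to 0.52, and 6 of them lay above the median of all autosomal genes.

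AQP4, the water channel of Müller glia, was the 1 higher gene of 12 Müller genes, whose median was 0.04. It ranged from 123 to 176 CPM (median 144) in W-carrying libraries and from 108 to 146 CPM (median 119) in W-lacking ones, a log2 difference of 0.24 (SE 0.0649, adjusted p 0.0241). It missed the threshold without C18R, C23R, C42L or C65L (limma adjusted p up to 0.0911, without C65L). GAD1, which makes the transmitter GABA, was the 1 higher gene of 21 amacrine genes, whose median was 0.04. It ranged from 310 to 349 CPM (median 334) in W-carrying libraries and from 286 to 316 CPM (median 305) in W-lacking ones, a log2 difference of 0.12 (SE 0.0331, adjusted p 0.0302). It missed the threshold without any 1 of C21R, C23R, C31L, C33R, C41R, C42L and C65L (limma adjusted p up to 0.0897, without C65L). With median-of-ratios scaling neither passed, at 0.17 (adjusted p 0.232) for AQP4 and 0.05 (adjusted p 0.684) for GAD1. No gene passed of 6 horizontal cell genes (median 0.02), 10 bipolar cell genes (0.08) or 14 ganglion cell genes (0.11), where limma gave 0, 3 and 2 genes with an unadjusted p under 0.05. Such a p was reached by 1 of the 12 Müller genes and 3 of the 21 amacrine genes. The genes with the smallest p in these lists were CALB1 at -0.21 (adjusted p 0.317), BHLHE23 at 0.16 (adjusted p 0.166) and ISL2 at 0.32 (adjusted p 0.0867). In whole retina, fewer cells of a type and less RNA per cell cannot be told apart.

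Genes tied to sex itself were counted in lists, beside 1.00% of all autosomal genes past the threshold and 13.3% with an unadjusted p under 0.05. Of 16 tested genes of sex steroid synthesis and response, 0 passed in limma, 2 had an unadjusted p under 0.05, and the median was 0.05. The largest difference of that list was at STS, the steroid sulfatase that frees steroids from their sulfate (chr1:127707646-127827227, minus strand), with a log2 difference of 1.16 (SE 0.475, adjusted p 0.211). It ranged from 34 to 89.8 CPM (median 73.5) in W-carrying libraries and from 2.22 to 85.6 CPM (median 52.4) in W-lacking ones. The low values were those of 2 W-lacking libraries of 3 days, C31L at 2.39 CPM and C43R at 2.22 CPM, and the other W-lacking libraries began at 37.6 CPM. The log2 difference was 0.77 without C31L, 0.76 without C43R and 1.52 without C65L. By age it was 0.09 at 1 day, 2.95 at 3 days (adjusted p 0.00347) and -0.27 at 6 days in the fit with separate differences per age. In the 3 day libraries fitted alone STS did not pass (adjusted p 0.0585). Of 9 genes of gonadal sex determination, 0 were higher and 1 was lower, JUN, with a median of 0.12. SOX9, a transcription factor of that list, had a log2 difference of 0.20 and did not pass (adjusted p 0.492). Of 33 chromatin and dosage regulators 0 passed in limma and 8 had an unadjusted p under 0.05, with a median of 0.10, and the smallest p was that of EZH1, a Polycomb methyltransferase, at 0.14 (adjusted p 0.167).

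The list of autosomal relatives of genes that W and Z share did not hold AN1ZNF5L and may not be complete. Of its 39 tested genes, 1 was higher and 0 lower, with a median of 0.07, the same as over all autosomal genes. It was FEM1A, a substrate receptor of a ubiquitin ligase (chr28:4967446-4972589, minus strand; TICAM1 overlaps on the other strand). FEM1A ranged from 23.5 to 31.1 CPM (median 26.6) in W-carrying libraries and from 19.3 to 25.3 CPM (median 21.2) in W-lacking ones. Its log2 difference was 0.22 (SE 0.0624, adjusted p 0.0342), and it missed the threshold under median-of-ratios scaling (0.16, adjusted p 0.187) or without any 1 of C10R, C17L, C18R, C19L, C23R, C33R, C34L, C42L and C43R (adjusted p up to 0.107, without C19L). CDC34, a ubiquitin-conjugating enzyme, had a log2 difference of 0.37 and lay just outside the threshold (adjusted p 0.0502). It ranged from 2.02 to 3.89 CPM in W-carrying libraries and from 1.12 to 2.60 CPM in W-lacking ones. GOLPH3L at 0.22, UBAP2L at 0.21 and RNF44 at 0.18 did not pass (adjusted p 0.477, 0.438 and 0.440).

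Among the 23 clock and melatonin genes, 1 was higher and 1 lower, with a median of 0.02, and 7 had an unadjusted p under 0.05. CLOCK, the activator of the circadian loop (chr4:65058739-65118687, plus strand), ranged from 88.6 to 122 CPM (median 103) in W-carrying libraries and from 78.4 to 109 CPM (median 83.2) in W-lacking ones, a log2 difference of 0.17 (SE 0.0445, adjusted p 0.0205). With median-of-ratios scaling CLOCK was at 0.10 and did not pass (adjusted p 0.429), while PER3 was at -0.36 and passed (adjusted p 0.0107). Under that scaling 0 of the 23 genes were higher and 2 were lower, PER3 among them, with a list median of -0.04. CLOCK lost the call in 3 of 21 fits that left out 1 library, those without C19L, C23R or C43R, with the highest adjusted p, 0.0637, without C19L. ARNTL, the partner of CLOCK, had 0.29 and did not pass (adjusted p 0.160). The labels give no hour of collection. Of 14 immediate early genes, JUN was lower and 0 were higher, with a median of -0.03. EGR1 at -0.34 and FOS at -0.19 did not pass (adjusted p 0.521 and 0.652).

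Broad gene groups had at most 1 gene each past the threshold. Of 69 cytosolic ribosomal protein genes RPS2 alone passed, with a log2 difference of 0.21 (SE 0.0586, adjusted p 0.0366) and a range of 24.1 to 33.9 CPM in W-carrying libraries and of at most 29.4 CPM in W-lacking ones. Of 20 genes of cholesterol synthesis DHCR7 alone passed, the enzyme of the last step, with a log2 difference of 0.24 (SE 0.0659, adjusted p 0.0343) and medians of 14.8 CPM in W-carrying and 11.9 CPM in W-lacking libraries. Neither passed with median-of-ratios scaling (adjusted p 0.364 for RPS2 and 0.239 for DHCR7). RPS2 missed the threshold without any 1 of C18R, C19L, C23R, C34L, C42L and C65L (adjusted p up to 0.123, without C65L). DHCR7 missed it without any 1 of C10R, C18R, C19L, C21R, C22L, C31L, C34L, C41R and C42L (adjusted p up to 0.0964, without C42L). No gene passed of 54 nuclear oxidative phosphorylation genes (median 0.08), 37 proteasome genes (0.07), 68 mitochondrial ribosome genes (0.10), 19 glycolysis genes (0.09), 25 heat shock and folding genes (0.02), 34 eye growth signals (0.02), 34 synapse genes (0.05), 15 interferon response genes (-0.01), 17 cell cycle genes (0.09), 20 histone genes (0.04), 13 thyroid hormone genes (0.11), 10 retinoic acid genes (0.05) or 4 polymorphic immune genes (0.07). With no adjustment a p under 0.05 was reached by 8 of the mitochondrial ribosome genes, 7 of the oxidative phosphorylation genes, 6 of the proteasome genes, 5 of the glycolysis genes, 5 of the synapse genes and at most 4 of each of the others. Over all autosomal genes the share was 13.3%.

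Markers of other tissue were also tested with limma, and 0 of their genes passed, with 2 lens genes alone at an unadjusted p under 0.05. Their medians were 0.07 for 7 pigment epithelium genes, 0.17 for 4 lens genes, -0.06 for 8 oligodendrocyte genes, 0.01 for 6 leukocyte genes, 0.04 for 5 sclera and choroid genes, 0.06 for 3 endothelial genes, -0.04 for 2 muscle genes and -0.00488 for the 1 erythroid gene, CA2, which Müller glia also express. Summed over 13 lens genes in the table, the level was 20.9 to 26.0 CPM in W-carrying and 16.3 to 25.5 CPM in W-lacking libraries, with 8 of the 13, CRYAA among them, below 0.5 CPM throughout. Of 12 library measures compared by an exact permutation test within ages (two-sided), the summed lens level (p 0.0132, adjusted p 0.0791) and the share of all reads that the table holds (p 0.0114, adjusted p 0.0791) had the smallest p. That share averaged 32.6% ± 0.965 in W-carrying and 31.1% ± 1.05 in W-lacking libraries (SD, n = 13 and 8), an age-adjusted difference of 0.870 percentage points. The other 10 measures had p-values of 0.241 or more. The part of these 2 measures in the autosomal differences was not tested.

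**Figure D5:**
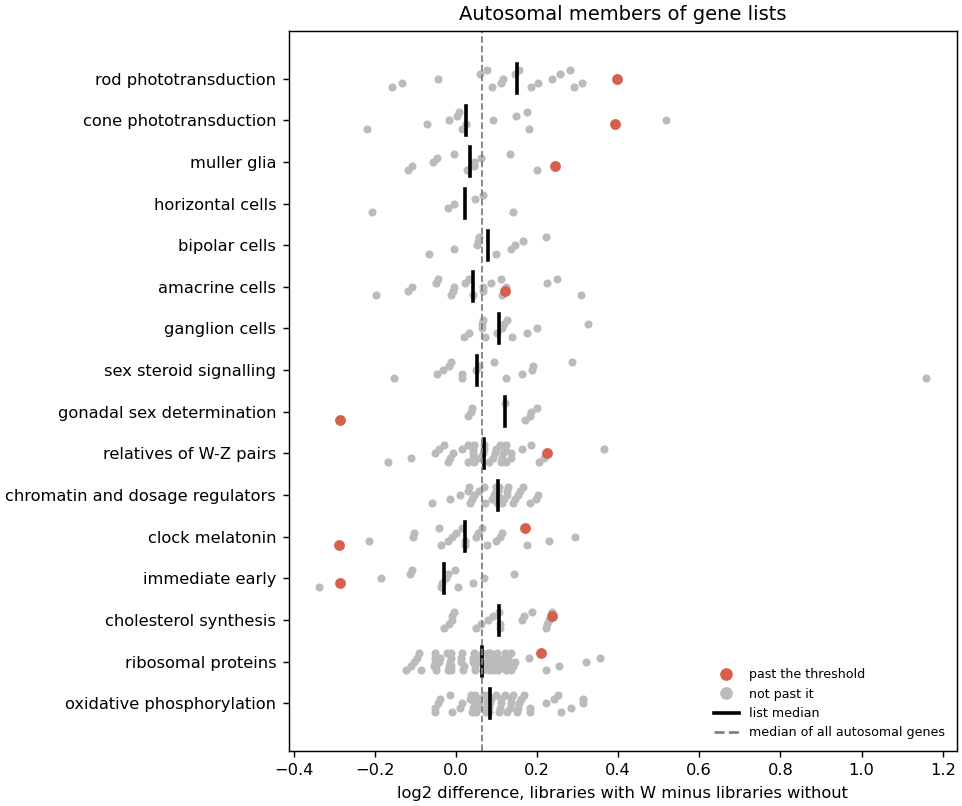
log2 difference (W-carrying minus W-lacking) of every tested autosomal gene of 16 lists, 1 point per gene, with genes past the threshold in red, a black bar at each list's median and a dashed line at the median of all autosomal genes, 0.07. No list has more than 1 red point in a direction, and STS at 1.16 stands apart to the right without passing.

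Age and the W division were unevenly matched, since 6 of 7 libraries at 6 days carried the W. Without age in the fit 395 autosomal genes passed, 388 higher and 7 lower, and 98 of the 395 were among the 120. The division in turn moved the count for 6 days against 1 day, where 2886 autosomal genes passed with the W division in the fit and 4038 without it, and 2829 passed in both. For 3 days against 1 day the counts were close, at 1281 with the division and 1255 without it, and 1209 passed in both. For 6 days against 3 days 2416 passed with the division and 2753 without it. These age counts are of the 11968 autosomal genes, and the share over all rows was not taken. The log2 difference of AN1ZNF5L between 6 days and 1 day was 0.53 with the division in the fit and 0.85 without it. For CETN2 it was 0.20 with the division (adjusted p 0.0929) and 0.36 without it (adjusted p 0.0206). For PER3 it was -0.24 with the division (adjusted p 0.0833) and -0.36 without it (adjusted p 0.0178). Other genes moved the opposite way. JUN was at 0.43 with the division (limma adjusted p 0.00140) and 0.30 without it (adjusted p 0.0241). MAP3K19 was at 0.55 with the division (adjusted p 0.0126) and 0.34 without it (adjusted p 0.144).

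The difference between W-carrying and W-lacking retinas was compared between ages in a fit with separate differences per age. The F test passed for 0 of 11968 autosomal genes, and 637 had an unadjusted p under 0.05 (5.32%). The contrast of 3 days with 1 day passed for 0 genes, and 426 had an unadjusted p under 0.05 (3.56%). The contrast of 6 days with 3 days passed for 1 gene (0.00836%), LOC107053809 on chromosome 7, whose values are given with the results set aside for a closer look. Within single ages, 31 of the 11968 autosomal genes passed at 1 day (27 higher, 4 lower) and 22 at 3 days (12 higher, 10 lower). The share over all rows was not taken in these fits. Of these 31 and 22, 10 and 5 were among the 120. At each of the 3 ages the groups did not overlap, with W-carrying retinas higher, for 16 genes (0.134%), against 0 genes in the lower direction and 308 of 611 Z rows in the lower direction (50.4%). Beside SYT15, TBCEL, AN1ZNF5L, RNMT and CETN2 these were ANGEL1, DEPDC5, FAM175A, GFPT1, HEATR5B, LDAH, LOC112533160, NBEA, OMA1, TENM1 and TIGAR, which were chosen for that pattern after their values were seen. TENM1 did not pass in limma (adjusted p 0.0568). LOC112533160 lay near the filter, with means of 0.649 CPM in W-carrying and 0.364 CPM in W-lacking libraries. The W-lacking mean is below 0.5 CPM, so the gene met the filter mostly through W-carrying libraries, where it was higher. Its place among the 16 genes is therefore a description. GFPT1, which starts hexosamine synthesis, averaged 67.3 ± 3.6 CPM in W-carrying and 58.1 ± 3.28 CPM in W-lacking libraries (SD, n = 13 and 8), a log2 difference of 0.17 (SE 0.0363, adjusted p 0.00293). TIGAR, a phosphatase that restrains glycolysis, averaged 9.55 ± 1.00 CPM in W-carrying and 7.64 ± 0.605 CPM in W-lacking libraries, a log2 difference of 0.31 (SE 0.0617, adjusted p 0.00112). NBEA, a scaffold of synaptic membrane traffic, averaged 525 ± 21 CPM in W-carrying and 481 ± 23.7 CPM in W-lacking libraries, a log2 difference of 0.12 (SE 0.0323, adjusted p 0.0348).

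The 120 genes were spread over the genome. They lay on 25 of the 28 numbered chromosomes, and 1 on an unplaced scaffold. That one was LOC107050050, with 0.228 to 0.919 CPM (median 0.424) in W-carrying libraries and 0.0374 to 0.708 CPM (median 0.0784) in W-lacking ones (log2 difference 0.60, SE 0.166, adjusted p 0.0314). Its highest W-lacking library was C65L, the only W-lacking one at 0.5 CPM or more. The gene thus met the filter mostly through W-carrying libraries, where it was higher. It kept the call in 10 of 21 fits that left out 1 library and had an adjusted p of 0.101 without C19L. In RefSeq's table of the later build GRCg7b, 113 of the 120 had a match, all 113 on the same chromosome and 0 on Z or W. AN1ZNF5L, LOC107049106 and LOC107051751 were among those without a match, so their place in that build was not checked. Of all 11968 autosomal genes 10945 had a match, 10666 on the same chromosome and 2 on Z or W. The chromosome numbers were themselves assigned from that build, so the agreement is in part built in. Tested genes next to each other along a chromosome both passed in 6 pairs. Among them were ARHGEF5 with LOC100858935 on chromosome 1, DHCR7 with NAV2 on chromosome 5 and the lower pair FAM19A4 and EOGT on chromosome 12. Rows that failed the filter can lie between the genes of a pair, and the number of pairs to be had by chance was not taken. The genes that passed had a median level of 14.9 CPM, against 7.60 CPM over all autosomal genes, and their median SE was 0.0658, against 0.0859. Rows annotated as noncoding RNA, with no coding sequence, made up 15% of the genes that passed (18 of 120) and 7.95% of all autosomal genes (951 of 11968).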

How the data were processed

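The deposited table gives CPM (counts scaled to library size) per gene and library, made by the authors with STAR, Partek and genome build GRCg6a, per the submitters' processing notes. Versions, annotation and whether counting used strand are not given in the sources used here. RNA was depleted of ribosomal RNA and libraries kept the strand, per the labels' protocols. An offset of 0.0001 CPM in every value was subtracted. Low values lay on multiples of 1 read in 94.5% to 95.6% of cases (within 0.1 of a read), so some are fractions of reads and no count test was run. That step gave the total reads.

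The members, gene lists and tests were chosen with earlier results of these data known. Differences were fitted with limma 3.58.1 in R 4.3.3 on log2(CPM + 0.5), with age and the W division as terms and a mean-variance trend, and were Benjamini-Hochberg adjusted over all 12614 rows at 0.5 CPM or more in 7 or more libraries. A difference on this scale understates the change of low genes. Library measures were compared by exact permutation within ages over 8575 arrangements, where the smallest p possible is 0.000117. The script for the fit was tested on simulated data.

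Named genes were the 15 largest higher genes with a symbol and at least 1 CPM in the higher group, all lower genes (fewer than 10 passed), the gene of smallest p and any gene past the threshold in each list, scaffold rows past the threshold, and the 5 largest differences among relatives of W and Z genes. LOC identifiers were not taken as symbols among the higher genes. SAG, OPN1LW, SOX9, ARNTL, EGR1 and FOS fall outside this rule and were chosen with their values known. Positions are those of the table (GRCg6a), and chromosome numbers come from RefSeq's GRCg7b table, matched by symbol for 15690 of 18631 rows. Alternatives changed the pseudocount (0.05, 2.5 CPM), the filter (none, 2.5 CPM), the scaling, the covariates, the weights, the adjustment, the marker of division and the libraries. The pairing of 2 changes, median-of-ratios scaling with adjustment over autosomal genes alone, was chosen after seeing the data. The values of 1 listed gene are not reported here.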

Additional observations from a re-analysis of the deposited data

Results flagged for a closer look

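Among 104 groups of 4 to 10 libraries examined for the named genes past the threshold, 8 had 1 library far from the others by Dixon's test, and chance alone gives about 5% of groups. C65L, the single W-lacking library of 6 days, was the highest of the 8 W-lacking libraries for AN1ZNF5L at 3.74 CPM (next 2.55 CPM), for BBIP1 at 4.95 CPM (next 3.74 CPM) and for JUN at 9.86 CPM (next 7.68 CPM). C10R was the lowest W-lacking library for DTL at 4.27 CPM, both over all ages (next 5.99 CPM) and among the 4 of 1 day (next 6.36 CPM). C18R was the lowest W-lacking library of 1 day for JUN at 5.93 CPM (next 7.17 CPM). C31L was the highest W-lacking library for LOC107051751 at 2.64 CPM (next 1.29 CPM). Among the 6 W-carrying libraries of 6 days, C57L was the highest for SYT15 at 10.5 CPM (next 6.31 CPM).

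LOC107053809 passed in the contrast of 6 days with 3 days of its difference between W-carrying and W-lacking retinas. The F test over the 3 ages did not pass for it (adjusted p 0.101). The log2 difference was 0.38 (SE 0.304) at 1 day, -0.52 (SE 0.304) at 3 days and 2.88 (SE 0.430) at 6 days, and the contrast of 6 days with 3 days was 3.40 (SE 0.527, limma adjusted p 0.0219 over all rows). At 6 days it stood at 10.4, 5.48, 11.6, 7.01, 13.2 and 12.2 CPM in the W-carrying libraries, against 0.866 CPM in C65L. The 7 other W-lacking libraries, of 1 and 3 days, lay between 5.09 and 10.4 CPM, so the contrast rests on C65L.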

How the results depend on the processing

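The count of 120 autosomal genes past the threshold, 111 higher and 9 lower in W-carrying retinas, moved with the adjustment, the scaling, the covariate and the libraries. It was 6, with 6 higher and 0 lower, when adjusted over autosomal genes alone. Median-of-ratios scaling gave 45 (24 higher, 21 lower), quantile normalization 48 (30 and 18), and median-of-ratios scaling with adjustment over autosomal genes alone 4 (3 and 1). Without age as a covariate it was 395 (388 higher). Libraries of 1 day alone gave 31 (27 and 4) and those of 3 days alone 22 (12 and 10), with fewer libraries in the fit. Leaving out each library in turn gave 67 to 198 genes, 63 to 192 higher and 2 to 9 lower. The other alternatives, both pseudocounts, no filter and the higher filter, the title letter, array weights, robust empirical Bayes, assembled chromosomes alone, division by SPIN1W and the libraries of 1 and 3 days, gave 98 to 133. The F test between ages passed for 0 genes, and for 1 with a pseudocount of 0.05 CPM and for 1 with no filter. Signs turned for 4 genes that passed in no fit. CA2 was at -0.00488 and reached 0.0636 without the age covariate, 0.0254 with the title letter and -0.110 to 0.0803 when 1 library was left out. COL3A1 was at -0.19 at 1 day alone and ESAM at -0.0201 at 3 days alone. ACTC1, at -0.07, was at 0.51 at 1 day alone, 0.0845 at 1 and 3 days, and -0.162 to 0.0845 when 1 library was left out. Where no construction shows it, the cause was not tested. No paired analysis was possible because each number in the titles is used once. At these depths 1 read is worth 0.0241 to 0.0361 CPM, which limits genes near the filter of 0.5 CPM, and that limit covers counting error alone.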

Other observations

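The median difference was not the same along the karyotype. It was 0.06 (log2) over the 1685 tested genes of chromosome 1 and 0.04 over the 1157 of chromosome 2, the largest chromosomes, and 0.10 over the 216 of chromosome 28 and 0.12 over the 284 of the smaller chromosomes without a number here. Chromosome 26 had 5 of 183 genes past the threshold and chromosome 28 had 5 of 216, against 4 of 1157 on chromosome 2, and chromosomes 16, 18 and 25 had 0 of 40, 263 and 135. The 4 mitochondrial rows had a median of 0.34 and 0 passed, with a median SE of 0.212. These are descriptions, and no test of a difference between chromosomes was run.

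2 genes that the table places on autosomes lie on a sex chromosome in the later build GRCg7b. LOC112531967, on chromosome 2 in the table and on W in GRCg7b, ranged from 0.0857 to 2.46 CPM in W-carrying libraries and from 0.151 to 1.77 CPM in W-lacking ones and did not pass (log2 difference 0.35, SE 0.325, limma adjusted p 0.603). LOC112532140, on chromosome 3 in the table and on Z in GRCg7b, ranged from 1.31 to 3.83 CPM in W-carrying libraries and from 2.67 to 4.72 CPM in W-lacking ones and did not pass (log2 difference -0.37, SE 0.145, adjusted p 0.195). LOC112531967 did not have the separation between the groups that the W genes HINTW and SPIN1W have. For LOC112532140 the comparison is with Z rows, whose median log2 difference was -0.43. Its groups overlapped, and whether it behaves as a Z gene was not tested.

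STS lay in separate ranges among the libraries, split at the 2 widest gaps between sorted values after they were seen. The lowest range held 2 W-lacking libraries of 3 days, at 2.22 and 2.39 CPM. The middle one held 7 libraries between 34 and 46.4 CPM, of which 5 were W-carrying and 2 W-lacking. The highest held 12 libraries between 65 and 89.8 CPM, of which 8 were W-carrying and 4 W-lacking. PUDP overlaps STS on the other strand.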
